A study of Mus musculus with 5 samples.

Results

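Genes of tissue exit and residency were examined in lung group 2 innate lymphoid cells (ILC2s): *Klf2*, *S1pr1*, *S1pr4*, *Ccr7*, *Cd69*, *Rgs1* and *Rgs2*. They were chosen by symbol for their known roles, as 7 of the 27726 genes common to 5 single-cell libraries, and all 7 were detected in each library. Levels were read in *Gata3*+ or *Il1rl1*+ cells of each library, named gated cells here, and in thymocyte-like cells of the week 3 ta-non-activated library. *Gata3* encodes the transcription factor that specifies ILC2s and *Il1rl1* encodes ST2, the receptor for IL-33.

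The cells were sorted by the study as lineage-negative ST2+ CD127+ Thy1.2+ CD45+ cells from lungs of wild-type (WT) C57BL/6 mice, females of 4 to 8 weeks by its methods, with cells of 5 mice pooled in each library. Naïve ILC2s (1 library) came from mice without tumour. Ta-non-activated ILC2s (2 libraries) came from mice carrying subcutaneous TC1 tumours, a transplanted mouse lung tumour line, and were sequenced fresh at week 2 or week 3 after implantation. Ta-activated ILC2s (2 libraries) came from tumour-carrying mice of the same weeks and were first cultured for 7 days with rhIL-2, rmIL-33 and TSLP at 10 ng/mL each. The tumour grew in the flank and not in the lung, and a pool gives no spread between mice. The design also joins time in culture with the cytokines, so these cannot be told apart.

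Lymphocytes leave tissue toward lymph and blood, where sphingosine 1-phosphate (S1P) is high, through the receptor S1PR1, and the transcription factor KLF2 drives *S1pr1* in T cells. CD69 binds S1PR1 and takes it off the cell surface, and CCR7 guides cells to lymph nodes. RGS proteins shorten the signals of such G protein-coupled receptors, and high CD69 and RGS1 with low KLF2 and S1PR1 are known features of tissue-resident lymphocytes, ILC2s included.

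The bases upstream of the RefSeq start are shown for *Klf2* and *Rgs2*, whose levels were low in the same 3 libraries. RefSeq promoters (GRCm38.p6) held 3 of the 7 genes, these and *S1pr4* (chr10:81500138-81500387, minus strand). *S1pr1*, *Ccr7*, *Cd69* and *Rgs1* had no entry. Each run holds the 250 bases before the RefSeq start, 5′ to 3′ on the gene's strand, and capitals mark CACCC or its reverse complement, the core of the site KLF proteins bind.

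Klf2, chr8:72318812-72319061, plus strand: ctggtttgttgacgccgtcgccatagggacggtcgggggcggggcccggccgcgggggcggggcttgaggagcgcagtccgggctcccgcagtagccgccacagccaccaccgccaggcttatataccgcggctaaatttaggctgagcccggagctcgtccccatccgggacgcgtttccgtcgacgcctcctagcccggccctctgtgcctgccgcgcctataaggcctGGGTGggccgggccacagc

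Rgs2, chr1:144004150-144004399, minus strand: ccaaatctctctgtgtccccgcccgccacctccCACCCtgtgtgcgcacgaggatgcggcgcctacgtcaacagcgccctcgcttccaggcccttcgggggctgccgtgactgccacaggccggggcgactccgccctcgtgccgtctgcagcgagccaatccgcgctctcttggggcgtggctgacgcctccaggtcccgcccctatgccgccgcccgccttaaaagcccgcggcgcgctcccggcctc

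CACCC was searched on both strands and stood once in each of the 3 windows, beginning 19 bases before the *Klf2* start, 217 before the *Rgs2* start and 107 before the *S1pr4* start, and 52.0% of 32851 RefSeq promoter windows of this length held it. The AP-1 motif TGANTCA (6.75% of windows) and the cyclic AMP motif TGACGTCA (1.55% of windows) had no match in these 3 windows. The *Klf2* and *Rgs2* windows were 71.2% and 72.4% G or C with 29 and 30 CpG pairs. The *S1pr4* window was 38.8% G or C with 0 CpG pairs, against medians of 52.4% and 6 pairs over all windows. *Rgs1* (chr1:144242296-144249242, minus strand) and *Rgs2* (chr1:143999338-144004161, minus strand) lie on the same chromosome and strand in GENCODE M21 on GRCm38. GENCODE M21 starts differ from those of RefSeq, and the *Klf2* and *Rgs2* windows reach into the GENCODE genes. *Klf2* begins at chr8:72319033 there, so its marked site lies within the GENCODE gene.

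Gated cells numbered 5886 in the naïve library, 1770 (week 2) and 586 (week 3) for ta-non-activated ILC2s, and 2712 (week 2) and 3738 (week 3) for ta-activated ILC2s. Median depth ran from 2867 unique molecular identifiers (UMIs) per cell (week 3 ta-non-activated) to 16279 (week 2 ta-non-activated). The 12 ILC2 marker genes were all detected in each of these 5 populations, but *Gata3* and *Il1rl1* among them set the gate. All 12 were also detected in thymocyte-like cells, at 602 CPM in sum against 5797 to 11624 CPM in gated cells. The week 2 ta-non-activated library stood apart from the other fresh libraries. Over 7181 genes, its log2(CPM + 1) values correlated at r = 0.851 with the week 2 and 0.836 with the week 3 ta-activated library, but at 0.734 with the week 3 ta-non-activated and 0.510 with the naïve library. Its label calls it tumour carrying and non-activated, and by the study's methods such cells were sequenced without culture. Fits that include it are also given without it, and ratios to it have no counterpart without it. Pairs of libraries shared 1 to 11 barcodes. The naïve matrix names another Cell Ranger version than the other 4, and the part of the counting step was not tested. The 7 genes had 0 to 8904 bases outside annotated exons, all under the median of 10498 over 27639 genes.

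The thymocyte-like cells were 846 of the 1601 cells kept in the week 3 ta-non-activated library, in the 2 clusters that carried both *Rag1*, a recombinase gene, and *Ptcra*, the pre-T cell receptor gene, at 20 CPM or more. Levels are counts per 1000000 UMIs (CPM) summed over cells, with exact Poisson 95% intervals that cover counting error only and not differences between mice or libraries. A lower level in a summed population cannot tell fewer cells with a transcript from less transcript per cell, and shares of cells are given further on.

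*Klf2*, the transcription factor that favours exit, was highest in thymocyte-like cells at 183 CPM (interval 174 to 194). It stood at 71.6 CPM (68.6 to 74.7) in naïve ILC2s and at 61.4 CPM (50.4 to 74.2) in week 3 ta-non-activated ILC2s, which overlapped. It was 9.70 CPM (8.90 to 10.6) in week 2 and 5.86 CPM (5.27 to 6.501) in week 3 ta-activated ILC2s, and 1.52 CPM (1.13 to 2.01) in week 2 ta-non-activated ILC2s. The last 3 libraries thus lay below the other populations without overlap.

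*S1pr1*, the S1P receptor for exit, was scarce in gated cells. Its level was 18.5 CPM (17.04 to 20.1) in naïve ILC2s, 8.53 CPM (4.77 to 14.1, from 15 UMIs) in week 3 ta-non-activated ILC2s and 6.96 CPM (5.16 to 9.17) in thymocyte-like cells. It was 5.35 CPM (4.76 to 5.99) and 2.65 CPM (2.26 to 3.09) in week 2 and week 3 ta-activated ILC2s, and 1.22 CPM (0.870 to 1.66) in week 2 ta-non-activated ILC2s. In all gated cells the naïve library was highest and the week 2 ta-non-activated library lowest. The week 3 ta-non-activated, thymocyte-like and week 2 ta-activated levels overlapped.

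*S1pr4*, an S1P receptor expressed mainly on blood cells, was ordered otherwise. It was highest in the 2 ta-activated libraries, at 50.7 CPM (48.8 to 52.6) in week 2 and 46.5 CPM (44.8 to 48.2) in week 3. The fresh libraries held 25.4 CPM (23.7 to 27.3, naïve), 18.4 CPM (16.99 to 19.96, week 2) and 15.9 CPM (10.6 to 23.0, week 3), the last with 28 UMIs. Both cultured libraries lay above all 3 fresh libraries, and thymocyte-like cells had the lowest level, 5.57 CPM (3.98 to 7.58).

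*Ccr7*, the lymph node homing receptor, stayed under 10 CPM in all 6 populations. Its level was 2.71 CPM (2.16 to 3.37) in naïve ILC2s, 6.15 CPM (5.33 to 7.06) and 6.82 CPM (3.53 to 11.9) in week 2 and week 3 ta-non-activated ILC2s, 9.73 CPM (8.93 to 10.6) and 4.14 CPM (3.65 to 4.68) in week 2 and week 3 ta-activated ILC2s, and 2.78 CPM (1.70 to 4.30) in thymocyte-like cells. The week 3 ta-non-activated value rested on 12 UMIs and overlapped every other population but the naïve one. The week 2 ta-activated library lay above the other populations except that one, but its level was 3.40 CPM after thinning to 2000 UMIs per cell, against 2.997 CPM in week 2 ta-non-activated ILC2s.

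*Cd69*, which opposes S1PR1 and is also an early activation gene, was highest in naïve ILC2s at 726 CPM (716 to 735) and next in week 3 ta-non-activated ILC2s at 448 CPM (417 to 481). Ta-activated ILC2s held 144 CPM (141 to 147) in week 2 and 188 CPM (185 to 192) in week 3, and thymocyte-like cells 141 CPM (132 to 150). The week 2 ta-activated and thymocyte-like levels overlapped. The week 2 ta-non-activated library was lowest at 31.8 CPM (29.9 to 33.8).

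*Rgs1*, a brake on chemokine and S1P receptor signalling, was highest after culture in week 2. Its level was 1216 CPM in week 2 and 838 CPM (830 to 845) in week 3 ta-activated ILC2s, and 824 CPM (782 to 868) in week 3 ta-non-activated ILC2s, so the week 3 populations overlapped. Naïve ILC2s held 442 CPM (434 to 449), week 2 ta-non-activated ILC2s 258 CPM (253 to 264) and thymocyte-like cells 71.0 CPM (65.0 to 77.4).

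*Rgs2*, a regulator that acts on Gq-coupled receptors, had the widest range of the 7. Its level was 1269 CPM in naïve and 1013 CPM in week 3 ta-non-activated ILC2s and 208 CPM (198 to 219) in thymocyte-like cells. It was 8.84 CPM (8.07 to 9.65) and 9.13 CPM (8.39 to 9.91) in week 2 and week 3 ta-activated ILC2s, and 1.34 CPM (0.974 to 1.80) in week 2 ta-non-activated ILC2s. The cultured libraries overlapped each other and lay far below the naïve and week 3 fresh libraries.

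**Figure D1:**
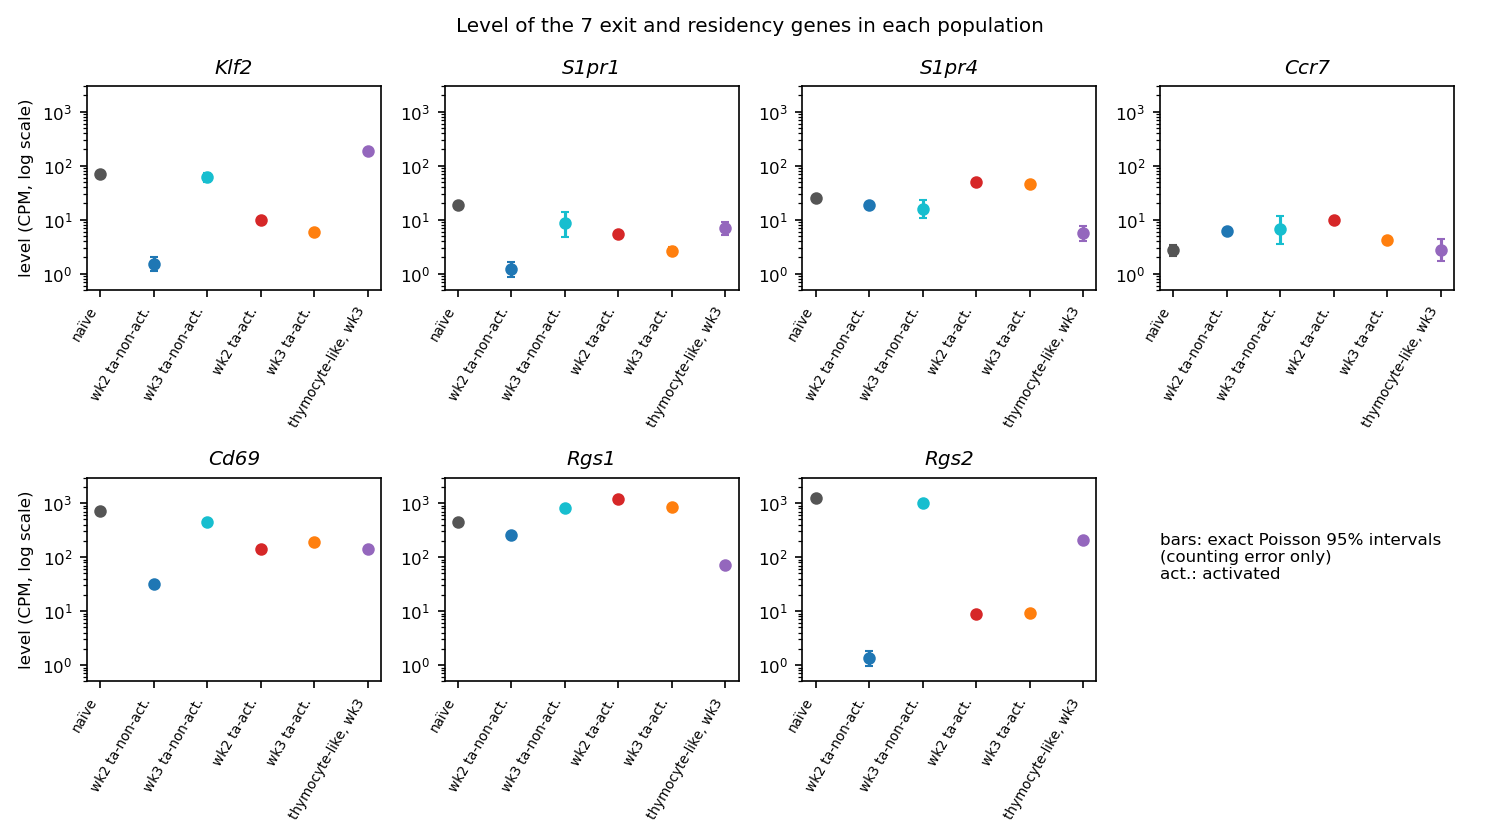
Level of each gene in CPM (log axis) in the 6 populations, with points for summed counts and bars for exact Poisson 95% intervals. *Klf2* and *Rgs2* were lowest in the week 2 ta-non-activated library (1.52 and 1.34 CPM), while *S1pr4* was highest in the 2 ta-activated libraries (50.7 and 46.5 CPM).

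Whether the 7 genes changed with activation was tested with 2 ta-activated against 2 ta-non-activated libraries. No member passed edgeR's quasi-likelihood test. *S1pr4* came nearest by its unadjusted p and was higher in both ta-activated libraries than in both ta-non-activated libraries, with a log2 fold change of 1.29 (SE 0.39, adjusted p = 0.374). *Rgs2* had the largest fitted difference, a log2 fold change of -5.97 (SE 2.60, adjusted p = 0.456), with one fresh library far above and the other below both cultured libraries. For *Klf2* the log2 fold change was -2.11 (SE 1.52, adjusted p = 0.633) and for *Cd69* it was -0.69 (SE 1.13, adjusted p = 0.835). It was 0.76 for *Rgs1* (SE 0.64, adjusted p = 0.685), -0.21 for *S1pr1* (SE 1.02, adjusted p = 0.952) and -0.08 for *Ccr7* (SE 0.58, adjusted p = 0.968).

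Of the 12504 genes tested, 0 (percent called 0 in each direction) had a Benjamini-Hochberg adjusted p under 0.05 in edgeR, and 1460 (11.7%) had an unadjusted p under 0.05. On the same genes DESeq2 called 316 higher and 132 lower (3.58%), with *Rgs2* (adjusted p = 0.00641) and no other member among them. Where a fresh library is left out, its group has 1 library, which is assumed to vary as the 2 cultured libraries do. Without the week 2 ta-non-activated library edgeR called *Rgs2* (log2 fold change -6.96, adjusted p = 0.0252) and *Klf2* (-3.11, adjusted p = 0.0493) lower, among 437 of 13210 genes called (3.31%). Without the week 3 ta-non-activated library it called *Rgs2* (2.49, adjusted p = 0.0493) and *Cd69* (2.13, adjusted p = 0.0493) higher, among 500 of 13265 genes called (3.77%). The sign of the fitted fold change of *Rgs2*, *Klf2*, *Cd69* and *S1pr1* thus differed between these 2 fits. The direction of *S1pr4* and *Rgs1* was upward in each of these fits.

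Within each week the comparison has 1 library a side and no test. A member counted as past 2-fold where it reached 20 CPM on either side. In week 2, 3 members were past 2-fold and all were higher in culture: *S1pr4* by 2.75-fold (interval 2.52 to 3.01), *Cd69* by 4.53-fold (4.25 to 4.84) and *Rgs1* by 4.71-fold (4.61 to 4.82). Of 5733 genes, 15.9% were higher and 12.5% lower by this rule. Below 20 CPM, *Klf2* was 6.37-fold, *Rgs2* 6.59-fold and *S1pr1* 4.39-fold higher in culture.

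In week 3, 3 of 5 members at 20 CPM were lower in culture, *Rgs2* by 111-fold (101 to 122), *Klf2* by 10.5-fold (8.37 to 13.0) and *Cd69* by 2.38-fold (2.21 to 2.56). *S1pr4* was 2.92-fold higher (2.02 to 4.40), and the level of *Rgs1* differed by 1.02-fold (0.965 to 1.07). Of 5927 genes, 24.3% were higher and 10.5% lower by 2-fold or more. In gated cells *S1pr4* was thus the one member past 2-fold in the same direction in both weeks, while *Klf2*, *S1pr1*, *Cd69* and *Rgs2* went opposite ways. Without a gate *Rgs1* was also past 2-fold higher in both weeks. The same held with thymocyte-like cells kept in the gate, where week 3 fresh cells had 330 CPM of *Rgs1*. Between the cultured libraries themselves, 0 of 3 members at 20 CPM were past 2-fold, against 2.33% of 5623 genes higher and 3.29% lower in week 2.

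**Figure D2:**
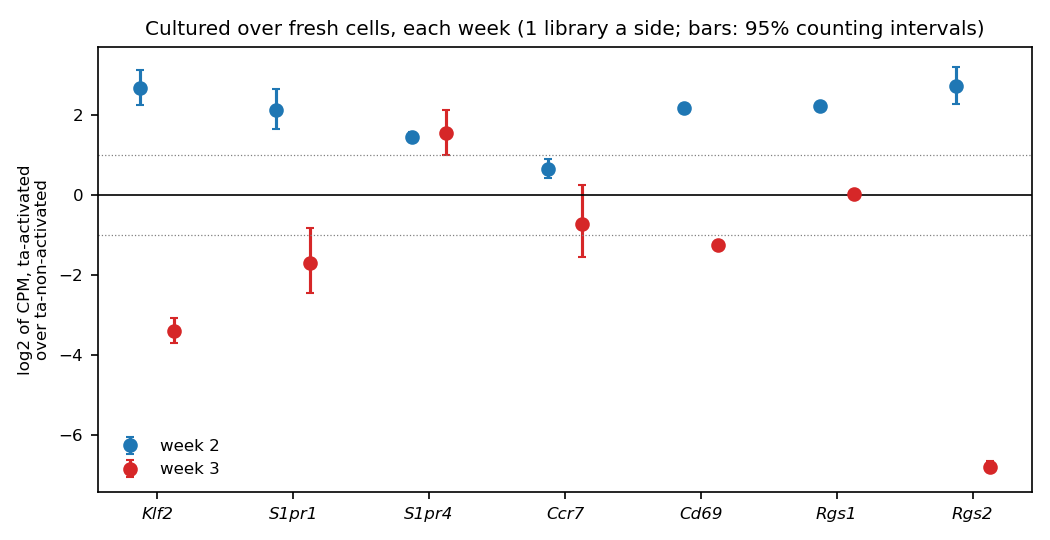
Log2 ratio of the CPM in ta-activated over ta-non-activated ILC2s for each gene, in week 2 (blue) and week 3 (red), with 95% counting intervals and dotted lines at 2-fold. *Rgs2* stood at 2.72 in week 2 and -6.79 in week 3, while *S1pr4* stood at 1.46 and 1.55.

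Fresh ILC2s of tumour-carrying mice were then set beside naïve ILC2s, again 1 library a side. Between naïve and week 3 ta-non-activated ILC2s, 0 of 5 members at 20 CPM were past 2-fold, against 28.6% of 6009 genes higher and 3.26% lower in the naïve library. *Rgs1* was 1.87-fold lower in naïve ILC2s (1.77 to 1.97). *Cd69* was 1.62-fold higher there (1.51 to 1.74), *S1pr4* 1.60-fold higher (1.10 to 2.42) and *Rgs2* 1.25-fold higher (1.19 to 1.31), and the ratio of *Klf2*, 1.17, had an interval from 0.961 to 1.43. Under 20 CPM, *S1pr1* was 2.17-fold higher (1.31 to 3.91) and *Ccr7* 2.52-fold lower (1.25 to 4.64) in naïve ILC2s.

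Against week 2 ta-non-activated ILC2s, naïve ILC2s were 947-fold higher in *Rgs2* (705 to 1303), 47.0-fold in *Klf2* (35.5 to 63.6) and 22.8-fold in *Cd69* (21.4 to 24.3). These were 3 of 5 members at 20 CPM, and 35.5% of 6566 genes were higher and 24.9% lower. *S1pr1*, under 20 CPM, was 15.2-fold higher (11.0 to 21.5), and *Rgs1* was 1.71-fold higher. The week 2 ta-non-activated library lay below the week 3 ta-non-activated library by 756-fold in *Rgs2* (561 to 1044), 40.3-fold in *Klf2* (28.6 to 57.6), 14.1-fold in *Cd69* (12.8 to 15.5) and 3.19-fold in *Rgs1* (3.02 to 3.38), which were all 4 members at 20 CPM. Of 5705 genes, 26.4% were higher and 18.4% lower in week 2. Weeks 2 and 3 have 1 fresh library each, so the week and the library cannot be told apart.

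A list of 15 dissociation and immediate early genes, such as *Fos* and *Junb*, had a summed level that split the populations as *Rgs2* and *Klf2* did. All 15 were detected in each population, and their summed level was 10817 CPM in naïve, 13376 CPM in week 3 ta-non-activated and 7822 CPM in thymocyte-like cells, but 1415 CPM in week 2 ta-non-activated and 1885 and 1888 CPM in week 2 and week 3 ta-activated cells. *Rgs1* did not follow that split, with 1216 CPM in week 2 ta-activated and 71.0 CPM in thymocyte-like cells. Among gated ILC2s *Cd69* did follow it, as naïve cells held 726 CPM and fresh cells of week 3 held 448 CPM. Fresh cells of week 2 held 31.8 CPM of *Cd69*, and cultured cells of weeks 2 and 3 held 144 and 188 CPM. Only thymocyte-like cells, at 141 CPM, departed from the split in *Cd69*. *Fos* itself stood at 1310 CPM in the week 3 and 0.701 CPM in the week 2 fresh library. Of the 15 genes, 14 were past 2-fold lower in week 2 than in week 3 fresh cells and 1 was higher, against 18.4% and 26.4% of all genes. The part of these genes' level in the differences of the members was not tested.

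**Figure D3:**
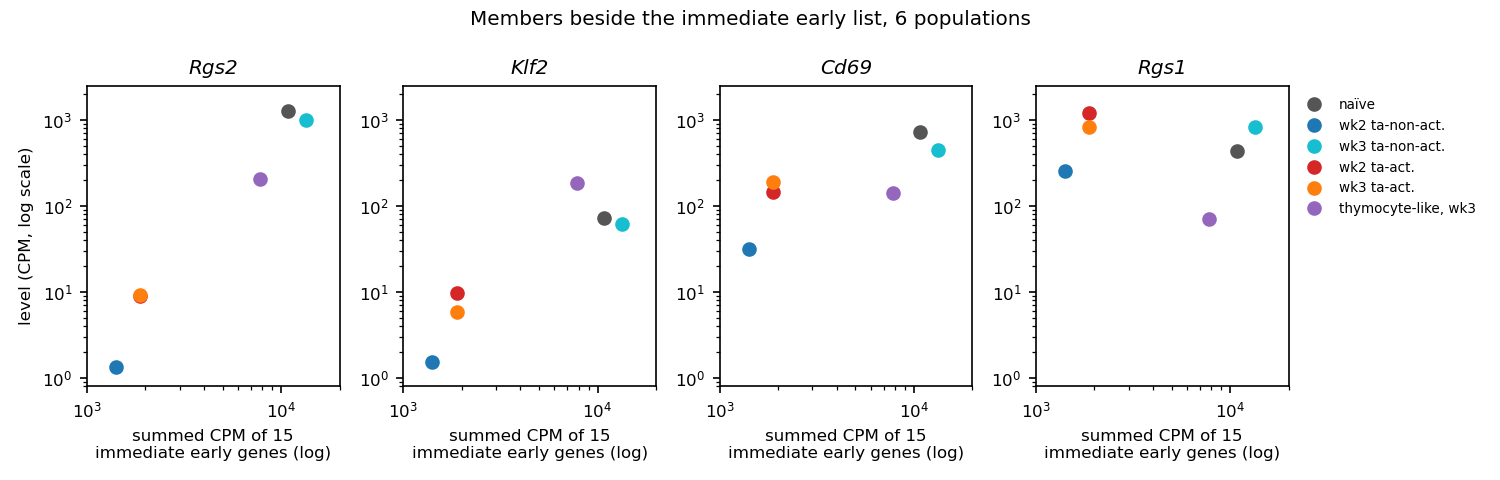
Level of *Rgs2*, *Klf2*, *Cd69* and *Rgs1* (CPM, log axis) against the summed CPM of 15 immediate early genes (log axis), 1 point for each of 6 populations. The 3 populations between 1415 and 1888 CPM on the horizontal axis held *Rgs2* at 1.34 to 9.13 CPM, the other 3 at 208 to 1269 CPM.

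Thymocyte-like cells and gated ILC2s of the week 3 ta-non-activated library came from the same sort and droplets. Thymocyte-like cells were 2.99-fold higher in *Klf2* (2.45 to 3.67), and lower in *Rgs1* by 11.6-fold (10.5 to 12.9), *Rgs2* by 4.87-fold (4.54 to 5.22) and *Cd69* by 3.19-fold (2.90 to 3.50). These were all 4 members at 20 CPM, and of 6035 genes 27.6% were higher and 15.5% lower in thymocyte-like cells. *S1pr1* differed by 1.23-fold with an interval from 0.639 to 2.22, so a difference was not detectable at this depth. *Il1rl1*, which thymocytes should lack, was at 2.11 and 1.81 CPM in the 2 thymocyte-like clusters and at 385 CPM in the ILC2-like cluster.

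The same library was clustered without the 7 genes among the variable genes. Cluster 0 (682 cells) was ILC2-like, with *Il1rl1* and *Il5* among its leading genes, cluster 1 (581 cells) was thymocyte-like, and cluster 2 (265 cells) was thymocyte-like with cell-cycle genes such as *Mki67* at 206 CPM. For the thymocyte-like clusters 1 and 2 in turn, *Klf2* stood at 224 and 149 CPM, *S1pr1* 12.0 and 2.59 CPM, *Cd69* 198 and 90.8 CPM, *Rgs1* 116 and 32.6 CPM, and *Rgs2* 287 and 140 CPM. These 5 were higher in the cluster with few cell-cycle transcripts, with intervals apart. *S1pr4* (6.92 and 4.40 CPM) and *Ccr7* (4.21 and 1.55 CPM) had overlapping intervals. The share of all genes higher in cluster 1 than in cluster 2 was not counted. Median depth was 5506 UMIs in cluster 1 and 13493 in cluster 2.

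Cluster 3 (73 cells) stayed unnamed and was led by *Ccl5*, *Cd7*, *Il17a*, *Cd74*, *Cd40lg* and *Ccr7*. It had 2.62% of the library's UMIs but 71.6% of its *Ccr7* UMIs (73 of 102) and 44.0% of its *S1pr1* UMIs (48 of 109). Its levels were 296 CPM (232 to 373) for *Ccr7*, 195 CPM (144 to 258) for *S1pr1* and 601 CPM (508 to 706) for *Klf2*. The ILC2-like cluster held 4.58, 5.602 and 60.1 CPM of these 3 genes. For *Rgs1* the values were close, 873 CPM (760 to 998) here and 784 CPM (746 to 824) among the ILC2-like cells. The T cell receptor gene *Trac* stood at 248 CPM, against 3.57 CPM in the ILC2-like cells, and 16 of the 73 cells passed the *Gata3* or *Il1rl1* gate. These are cells of 1 library, and no test was run between clusters.

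**Figure D4:**
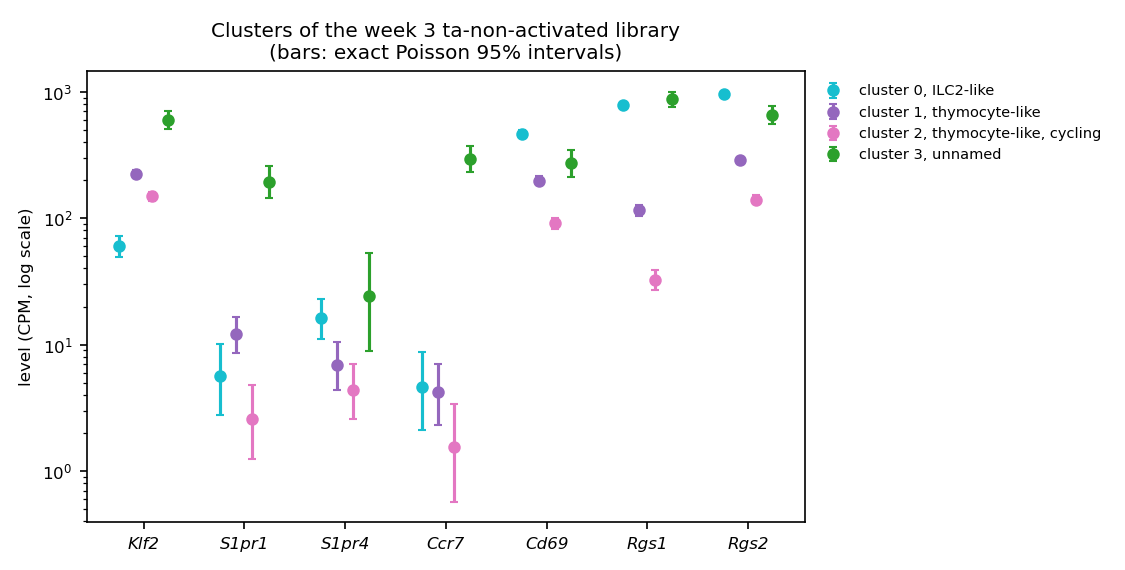
Level of each gene (CPM, log axis) in the 4 clusters of the week 3 ta-non-activated library, with exact Poisson 95% intervals. Cluster 3 was highest in *Klf2*, *S1pr1* and *Ccr7* (601, 195 and 296 CPM), and clusters 1 and 2 were lowest in *Rgs1* (116 and 32.6 CPM).

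Levels of *S1pr1*, *Klf2* and *Ccr7* also differed within libraries between cells split by the gate or by genes typical of other cells, not always in 1 direction. Naïve cells outside the gate (503 cells) held 435 CPM of *Klf2*, 151 CPM of *S1pr1* and 35.3 CPM of *Ccr7*, above the gated cells, and 337 CPM of *Cd69*, below them. The 9 T cell receptor and CD3 genes were all detected in each gated population, at 299 to 1272 CPM in sum. Of 5886 naïve gated cells, 3591 had 2 or more of these genes, so this split did not single out a minority. The 3591 cells held 24.0 CPM of *S1pr1* and 84.4 CPM of *Klf2*, those with fewer 7.53 and 45.6 CPM, at median depths of 4931 and 4084 UMIs. In week 3 ta-activated ILC2s the same split gave 4.30 and 0.488 CPM of *S1pr1*, but 3.21 and 9.34 CPM of *Klf2*, the reverse direction. In week 2 ta-activated ILC2s it gave 5.40 and 5.25 CPM of *S1pr1* and 7.32 and 14.2 CPM of *Klf2*. In week 2 ta-non-activated ILC2s it gave 1.94 and 0.338 CPM of *S1pr1* and 1.498 and 1.55 CPM of *Klf2*. In week 3 ta-non-activated ILC2s it gave 14.1 and 2.39 CPM of *S1pr1* (13 and 2 UMIs) and 68.4 and 53.8 CPM of *Klf2*, with overlapping intervals. *S1pr1* was thus higher beside T cell receptor genes, with intervals apart, in naïve, week 2 ta-non-activated and week 3 ta-activated ILC2s. Cells with 2 or more of these genes were deeper in each library, as at medians of 16004 and 10984 UMIs in week 3 ta-activated ILC2s. The part of other cells in these levels was not tested.

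Endothelial cells are known to express *Klf2* and *S1pr1*. The 12 endothelial genes were all detected in naïve gated cells at 401 CPM in sum, of which *Calcrl* was 306 CPM, and 7 to 12 were detected in the other gated libraries at 44.9 to 75.1 CPM. *Emcn* was at 0 in 3 of those 4 libraries. Naïve gated cells with under 2 endothelial genes still held 69.5 CPM of *Klf2* and 17.8 CPM of *S1pr1*. Leaving out cells that held 2 genes of either list kept 2011 of 5886 naïve cells. It kept 825 and 285 ta-non-activated and 1147 and 1991 ta-activated cells (week 2, then week 3). In the cells kept, *S1pr1* was 4.88 CPM in naïve, 0.315 and 1.22 CPM in week 2 and week 3 ta-non-activated and 2.75 and 0.248 CPM in week 2 and week 3 ta-activated ILC2s. The week 3 ta-activated library then had the lowest value, close to that of week 2 ta-non-activated ILC2s. Counting intervals are not given for this setting, so these libraries cannot be ordered. *Klf2* was 40.5 CPM in naïve, 48.9 CPM in week 3 ta-non-activated and 9.61 CPM in week 3 ta-activated ILC2s. *Cd69*, *Rgs1* and *Rgs2* moved by under 1.5-fold in these 3 libraries under that restriction. In the week 3 ta-non-activated library, 584 of 586 gated cells held under 2 cell-cycle genes, and *S1pr1* was 4.57 CPM in them against 8.53 CPM in all, so 2 cells set much of that level. Under the same restriction *S1pr1* went from 1.22 to 0.664 CPM in week 2 ta-non-activated ILC2s. In week 2 and week 3 ta-activated ILC2s it went from 5.35 and 2.65 to 2.86 and 0.895 CPM. *Ccr7* went from 6.15 to 2.99, 9.73 to 6.03 and 4.14 to 1.57 CPM in these libraries. In naïve ILC2s both genes stood close to their levels in all cells, at 18.3 and 2.64 CPM. The part of cycling cells was not tested.

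Shares of cells were compared after each cell of at least 2000 UMIs was thinned to 2000 and the gate applied again. This kept 5281 naïve cells, 1001 and 472 ta-non-activated cells, 1911 and 3091 ta-activated cells (week 2, then week 3) and 843 thymocyte-like cells. Cells under 2000 UMIs, which were left out, numbered 183, 4, 66, 31, 62 and 3 in the same order. The gate after thinning removed the other gated cells lost, as from 1770 to 1001 in week 2 ta-non-activated and 5886 to 5281 in naïve ILC2s. The shares thus describe cells selected for *Gata3* or *Il1rl1* to different degrees between libraries. Thus 69.3% of naïve and 61.4% of week 3 ta-non-activated ILC2s had an *Rgs2* UMI, but 2.72% and 1.55% of week 2 and week 3 ta-activated and 0.400% of week 2 ta-non-activated ILC2s. *Rgs1* was found in 81.5% and 67.7% of ta-activated, 34.4% and 55.9% of ta-non-activated (week 2, then week 3) and 41.8% of naïve ILC2s. *Cd69* was found in 55.1% of naïve, 39.8% of week 3 and 6.19% of week 2 ta-non-activated, and 23.0% and 28.9% of ta-activated ILC2s.

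*S1pr4* was found in 10.6% and 8.25% of ta-activated ILC2s against 4.62% of naïve and 4.30% and 3.18% of ta-non-activated ILC2s, so the share followed the level. *Klf2* was found in 6.34% of naïve and 18.7% of thymocyte-like cells, and *S1pr1* in 1.84% and 1.66%. *Ccr7* lay under 1% in each of the 6 populations. Without thinning, *Klf2* was found in 13.1% of naïve, 31.3% of thymocyte-like and 8.67% of week 2 ta-activated cells.

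**Figure D5:**
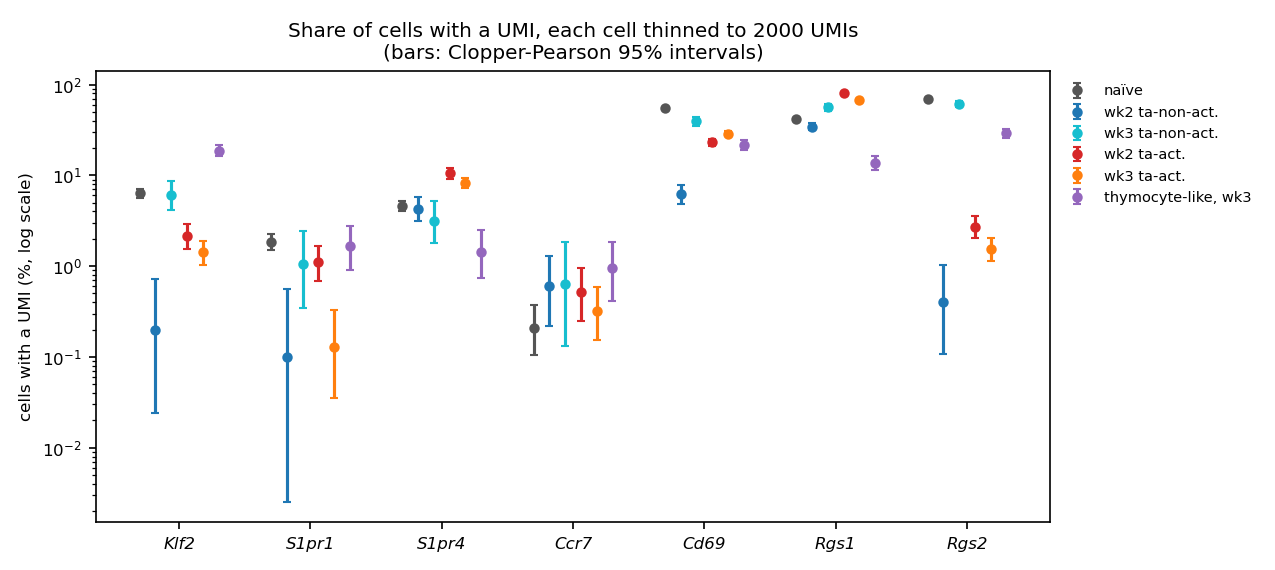
Share of cells with a UMI of each gene (percent, log axis) after thinning to 2000 UMIs, in the 6 populations, with Clopper-Pearson 95% intervals. *Rgs1* reached 81.5% in week 2 ta-activated ILC2s, while *Rgs2* lay at 69.3% in naïve and 1.55% in week 3 ta-activated ILC2s.

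Within the thinned naïve ILC2s, *S1pr1* was found more often beside *Klf2*. It was found in 38 of 335 cells with *Klf2* (11.3%, interval 8.15 to 15.2) and in 59 of 4946 cells without it (1.19%, 0.909 to 1.54). *Ccr7* was found in 5 of 97 cells with *S1pr1* (5.15%) and 6 of 5184 without it (0.116%). *Rgs1* and *Rgs2* showed a contrast that was smaller as a ratio. *Rgs1* was found in 46.1% of 3658 cells with *Rgs2* and 32.0% of 1623 without it. In week 3 ta-non-activated ILC2s it was found in 63.4% of 290 and 44.0% of 182 such cells. Among naïve cells *Rgs1* was found in 43.5% of 2910 with *Cd69* and 39.6% of 2371 without it. *Cd69* was found in 57.6% of naïve cells with *Klf2* and 54.9% without it, with overlapping intervals. Thymocyte-like cells did not show this: *S1pr1* was found in 2 of 158 cells with *Klf2* (1.27%, 0.154 to 4.50). It was found in 12 of 685 without *Klf2* (1.75%, 0.908 to 3.04). In week 3 ta-non-activated ILC2s it was found in 1 of 29 cells with *Klf2* and 4 of 443 without it. In week 2 and week 3 ta-activated ILC2s, *S1pr1* was found in 1 of 41 and 1 of 44 cells with *Klf2*. These last 3 libraries had too few to compare. Cells of 1 library are not replicates, and these shares describe that library.

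Other genes of exit, residency and the RGS family were counted from lists of 16, 9 and 10 genes. The exit list joins genes for leaving tissue with genes for retention, such as *Cxcr4*, so its counts give no direction of exit. In edgeR 0 of 12 tested exit genes, 0 of 8 residency genes and 0 of 9 RGS genes passed in either direction, 1, 3 and 1 of them had an unadjusted p under 0.05 (11.7% of all genes tested), and 8, 5 and 6 had a log2 fold change above 0. The medians of the log2 fold change were 0.21, 0.31 and 0.52, and -0.02 over all genes tested. *Itgae*, the CD103 integrin chain that tethers cells to epithelium, was higher in culture in both weeks, 74.5 CPM against 3.56 CPM in week 2 and 72.7 CPM against 6.82 CPM in week 3 (log2 fold change 3.73, SE 0.51, edgeR adjusted p = 0.225). Without the week 2 fresh library the median log2 fold change was 0.25 over all genes tested. It was 0.19 over 15 exit, -0.30 over 8 residency and 0.11 over 9 RGS genes. Without the week 3 fresh library it was 0.11 over all genes, and 0.46, 0.79 and 0.99 over 14, 8 and 9 genes of these lists. *Itgae* had log2 fold changes of 3.29 and 4.12 in these fits in turn.

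In week 3, 4 of 9 exit genes at 20 CPM were past 2-fold lower in culture and 1 was higher, against 10.5% and 24.3% of all genes, at a median log2 ratio of 0.12 against 0.32 over all genes. *Cxcr4*, a chemokine receptor for bone marrow retention, was 4.78 CPM in cultured and 92.7 CPM in fresh cells, *Klf3*, a KLF2-related repressor, 8.10 and 102 CPM, *Itgb7*, a gut homing integrin chain, 90.7 and 353 CPM, and *Gna13*, the G protein that couples S1PR2, 99.5 and 359 CPM. Among residency genes *Bhlhe40*, a transcription factor of resident T cells, was 72.3 and 641 CPM, and among RGS genes *Rgs18* was 39.8 and 101 CPM and *Rgs12* 41.3 and 9.67 CPM. In week 2, 2 of 7 exit genes (*Gna13* and *Itgb7*), 4 of 5 residency genes and 2 of 4 RGS genes (*Rgs10* and *Rgs14*) were past 2-fold higher in culture and 0 lower, against 15.9% and 12.5% of all genes. *Cxcr4*, at 1.81 CPM in cultured and 1.58 CPM in fresh cells of week 2, was low in both, as were *Klf2* and *Rgs2*.

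Naïve ILC2s were past 2-fold higher than week 2 ta-non-activated ILC2s in 7 of 9 exit genes, against 35.5% of all genes, among them *Cxcr4* (86.9 and 1.58 CPM), *Klf3* (106 and 8.74 CPM), *Gna13* (319 and 46.8 CPM) and *Foxo1* (60.3 and 11.8 CPM), the factor that drives *Klf2* in T cells. Against week 3 ta-non-activated ILC2s, 2 of 9 exit genes, *Foxo1* (22.2 CPM) and *Sgpl1* (25.9 and 11.9 CPM), which encodes the S1P lyase, 0 of 5 residency genes and 0 of 4 RGS genes were past 2-fold. The medians of the log2 ratio were -0.14, 0.01 and -0.04, against 0.29 over all genes.

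In thymocyte-like cells 4 of 9 exit genes were past 2-fold lower than in gated ILC2s and 1 was higher, against 15.5% and 27.6% of all genes. *Itgb7* was lower by the most (6.68 and 353 CPM). Of 5 residency genes 3 were lower, *Cxcr6* (3.76 and 636 CPM), *Bhlhe40* (8.35 and 641 CPM) and *Prdm1* (0.974 and 25.0 CPM), and of 3 RGS genes 2, *Rgs18* (9.32 and 101 CPM) and *Rgs10* (57.1 and 131 CPM).

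The genes most like each member were found by Pearson's r of log2(CPM + 1) over the 6 populations, among 7552 genes, with no test. *Zfp36l2* (0.999) and *Fosl2* (0.998) were nearest to *Rgs2*, and *Bcl2l11* (0.997) and *Fbxl5* (0.996) to *Klf2*. *Dgka* (0.997) was nearest to *Cd69*, *Irf2bpl* (0.996) and *Bscl2* (0.994) to *S1pr4*, and *Cd37* (0.986) and *Fam46a* (0.981) to *Rgs1*. *Ubash3a* (0.988) and *Abcb9* (0.988) were nearest to *S1pr1*, and *Fbxo9* (0.918) was among the 3 nearest to *Ccr7*. The populations share depth and library differences, and 6 points leave many genes with high values.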

How the data were processed

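The authors aligned reads with Cell Ranger and deposited raw UMI counts per gene and barcode, without normalization. The labels name Cell Ranger 3.0.2, Seurat 3 and GRCm38, and the naïve matrix header names Cell Ranger 6.0.0. The annotation release is not given in the sources used here. Barcodes with 200 or more genes and under 5% mitochondrial counts were kept, and no doublet caller was run. Gated cells had at least 1 UMI of *Gata3* or *Il1rl1*. Thymocyte-like cells of the week 3 ta-non-activated library, of which 316 of 846 held such a UMI, were left out of them. That library was clustered with Seurat 5.3.0 (2000 variable genes without the 7 members, 30 components, resolution 0.2), and its clusters were named by a rule written after they had been seen. Deposited totals ran from 9910201 to 71126524 counts per library.

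Counts were summed over cells. The replicated test was edgeR 4.0.16 in R 4.3.3 (filterByExpr, TMM, quasi-likelihood F test, Benjamini-Hochberg threshold 0.05) on 2 against 2 libraries. It was also run on simulated data, in which libraries of a group shared 1 mean for each gene. The fresh libraries lay further apart, so the simulation does not show power or error here. The study's Wilcoxon test over cells was not used because cells are not replicates. Log2 fold changes are ta-activated minus ta-non-activated. Pairs with 1 library a side have ratios with exact conditional intervals, and the 2-fold rule was read at 20 CPM or more on either side. Shares have Clopper-Pearson intervals at the 95% level. The 2 libraries of a group differ in week, so p-values measure the spread between these libraries, week included. Python 3.11.15, numpy 2.4.6, scipy 1.17.1 and pandas 2.3.3 were used, and matplotlib 3.10.9 for figures.

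The 7 genes were named by the list itself, and other genes of the pathway from 3 lists where they reached 20 CPM and passed 2-fold, at most 4 a list and comparison, largest first. *Itgae*, *Cxcr4* in week 2 and *Fos* were chosen after their values were seen. The members and lists were chosen with earlier results of these data known. Alternatives were DESeq2 1.42.0, every gene with a count, a replicate block for the week, all 5 libraries in 1 fit, other gates, leaving out each library, cells without endothelial or T cell receptor genes, a mitochondrial limit of 10%, means over cells and thinning to 2000 or 1000 UMIs. Leaving out cells with 2 cell-cycle genes, DESeq2 on the genes of the edgeR fit and the lists without each fresh library were chosen after seeing the data. The main fit did not pair the libraries by week, and whether the week pairs them could not be settled. Values of some genes of the lists and of the most alike genes are not reported here.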

Additional observations from a re-analysis of the deposited data

Results flagged for a closer look

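The difference between cultured and fresh ILC2s went opposite ways in weeks 2 and 3 for 4 of the 7 genes, with the counting interval of each ratio apart from 1. The share of all genes that did so was not counted, so this count is not particular to the 7 genes. Between the fresh libraries, 26.4% of 5705 genes were past 2-fold higher and 18.4% lower in week 2. The log2 ratio of ta-activated over ta-non-activated was 2.67 in week 2 and -3.39 in week 3 for *Klf2*, and 2.13 and -1.69 for *S1pr1*. It was 2.18 and -1.25 for *Cd69*, and 2.72 and -6.79 for *Rgs2*. With 1 library a side in each week the difference between the weeks was not tested. The cultured libraries held these genes within 2.02-fold of each other in all gated cells (*S1pr1* 2.75 and 0.248 CPM without cells holding 2 endothelial or 2 T cell receptor genes), and the fresh libraries differed by 7.002-fold in *S1pr1* to 756-fold in *Rgs2*.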

How the results depend on the processing

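The count of genes changed, 0 in edgeR, was 453 with DESeq2 on 17810 genes (303 higher, 150 lower), 448 with DESeq2 on the 12504 genes of the edgeR fit and 75 with edgeR on 17810 genes (68 higher, 7 lower). It ran from 31 to 500 when 1 library was left out (437 without week 2 and 500 without week 3 ta-non-activated ILC2s, 43 and 31 without week 2 and week 3 ta-activated ILC2s). It stayed 0 with the replicate block for the week, with 5 libraries and with both other gates. The correlation of deviations between the week 2 libraries was 0.0641. As the week 2 ta-non-activated library stood apart, this value cannot show whether the week pairs the libraries. Over leaving out each library, log2 fold changes ran from -6.96 to 2.49 for *Rgs2*, -3.11 to 2.11 for *Klf2*, -1.58 to 2.13 for *Cd69*, -1.22 to 1.48 for *S1pr1* and -0.91 to 0.41 for *Ccr7*. *Rgs2* was called with DESeq2 on either set of genes (-5.97 and -6.00). With the replicate block *S1pr1* (0.10) and *Cd69* (0.27) changed sign. *Cd69* also did without a gate (0.44) and with thymocyte-like cells kept in the gate (0.29), and so did *Ccr7* with those cells kept (0.36). No gate and the gate with thymocyte-like cells raised the members past 2-fold between naïve and week 3 fresh cells from 0 to 4 and 3, and lowered those between thymocyte-like and gated cells from 4 to 1 and 2. Without a gate the week 2 over week 3 fresh log2 ratio of *Rgs1* was 0.10. Without a gate *S1pr1* reached 20 CPM in naïve cells (27.3 CPM), which made 1 of the 4. In both settings the week 3 fresh set held thymocyte-like cells, all 846 without a gate and 316 with those cells kept. Thymocyte-like cells were thus compared with a set that included some or all of them. The gate with those cells kept differs from the gate used above by these 316 cells alone. Without a gate other cells entered as well, and the part of each was not tested. The other 52 of 56 counts of members past 2-fold stayed within 1.5 times, but a count can stay while its members change. Without a gate, week 3 cultured over fresh cells lost *Cd69* (log2 ratio -0.17) and gained *Rgs1* (1.80). *Rgs1* was then past 2-fold higher in culture in week 2 (2.21) as well. With thymocyte-like cells kept in the gate, week 3 cultured over fresh cells likewise lost *Cd69* (188 against 242 CPM) and gained *Rgs1* (838 against 330 CPM). In edgeR the log2 fold change of *Rgs1* was 1.92 without a gate and 1.77 with those cells kept. Levels left their Poisson interval in 129 of 336 cases, and shares in 74 of 84 when thinned otherwise. Depth limits *S1pr1* and *Ccr7* most, with 15 and 12 UMIs in week 3 ta-non-activated ILC2s.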
